A study of Rattus norvegicus and Mus musculus with 17 samples.

Results

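The genes described here encode proteins of the nucleolus that make ribosomes. They were taken by name from 3 deposited tables of liver RNA sequencing. A gene belonged to the group if its symbol, without regard to case, began with Nop, Rrp, Utp or Polr1 followed by a digit or letter, or was one of Ddx21, Fbl, Ncl, Npm1, Nolc1, Dkc1, Gar1, Nhp2, Bop1, Pes1, Wdr12, Gnl3, Rrs1 and Bysl. This gave 38 of the 11532 gene symbols in the tables. Of these, 6 were among the 4649 genes listed for the diethylnitrosamine (DEN) mouse model, 37 among the 9082 listed for the rat Morris hepatoma and 10 among the 2093 listed for regenerating rat liver.

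The study set liver tumour models beside regenerating liver, and every animal was male. C57BL/6 mice had received DEN, a liver carcinogen, at 50 mg/kg on day 14 of life, followed 30 days afterwards by TCPOBOP, an agonist of the receptor CAR, at 2 mg/kg. Liver was sampled at 5 months, ahead of any tumour (n = 3 libraries), or at 8 months, once tumours were present (n = 3). For the Morris hepatoma, cells of MH3924a, a transplantable rat hepatoma line, were placed in the liver of ACI rats aged 10 weeks, which were killed for the tumour after another 2 weeks (n = 4). Regenerating liver came from ACI rats of 10 to 12 weeks, 24 hours after part of the liver was removed (n = 4). The rat controls were livers of untreated, age-matched ACI rats (n = 3). The mice before tumours had received DEN and TCPOBOP too, and tumours and age cannot be told apart in that model. The tumour rats all carried the same cell line, and the rat controls were untreated rather than injected or operated on. Whether every library stands for a separate animal is not given by the labels, so the p-values reflect library-to-library spread that may be technical.

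A ribosome starts in the nucleolus, where RNA polymerase I transcribes a long precursor RNA from the ribosomal DNA. Box C/D particles then guide methylation of that precursor, H/ACA particles guide its pseudouridylation, and the small subunit processome and the large subunit factors fold, cut and assemble it into the subunits. Cells that grow or divide need many ribosomes, and the transcription factor Myc is a well known activator of these genes.

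The tables hold values read as RPKM, read counts scaled for transcript length and library size, so levels can be compared between genes per length. They list only genes whose deposited p-value was under 0.05, so nothing can be said here of the level of an unlisted gene. Relative depth, estimated from the steps of low values, was 0.943 to 1.22 times that of library 1 before tumours in the mice and 1.02 to 1.18 times that of control library 1 in the rats. The estimate is weak between groups: for hepatoma library 1, 193 of 756 genes lay on whole-read steps, beside 181 at the next best ratio. The absolute depth is unknown, so no counting intervals are given. Fold changes are on the log2(RPKM + 1) scale, which understates the change of low genes, and come from limma with Benjamini-Hochberg adjustment over all protein-coding genes. A gene was tested if it reached 1 RPKM in enough libraries to fill the smaller group (3 in every comparison with controls or in mice, 4 between tumour and regenerating liver), and it was said to rise or fall where the adjusted p was under 0.05. Hepatocyte markers, of which 15 of 18 were listed, summed to 109900 to 134400 RPKM in the control rat livers. In hepatoma libraries 1 to 4 the same sum was 1280, 123, 30960 and 25320 RPKM, and at most 1 of the 15 was at the value for no reads. The sum of these markers was thus far higher in hepatoma libraries 3 and 4 than in libraries 1 and 2. Of the 14 markers tested, 1 rose, 0 fell and 13 missed the threshold, with a median log2 fold change of -4.92. Which cells held these RNAs was not tested.

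In Morris hepatoma all 37 listed members rose above control liver with RPKM as deposited, although with library medians set equal only 22 rose and 1 fell, and with quantile normalization 24 rose and 1 fell. As a background, 85.5% of the 8233 genes tested in this comparison rose and 8.73% fell, so the count of members alone says little about them. Their median log2 fold change was 2.57, beside 1.58 over all tested genes. The ratio of group means ranged from 1.80 to 21.4 with a median of 7.92. It was over 2 in 36 members, over 4 in 29 and over 8 in 17. The groups overlapped in none of the 37 members, and they were separate in 98.6% of all tested genes too. Of the 37, 31 changed by more than the median tested gene and 22 by more than the upper quartile of 2.30. Rrp8 and Utp20 passed the filter on low values only through the hepatoma libraries, and the other 35 passed in the controls alone. In bulk samples such as these, fewer cells of a type and less RNA per cell cannot be told apart.

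Setting library medians equal moved the median of all tested genes from 1.58 to -0.08 and that of the members from 2.57 to 0.91. Quantile normalization gave 0.11 for all tested genes and 0.94 for the members, so the members' median was the higher of the pair under each scaling, with no test of that difference. The same scaling changed the split of all tested genes from 7042 higher and 719 lower to 2029 higher and 2389 lower, and quantile normalization gave 2514 and 1878. Both scalings rest on genes that were listed because they differed.

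**Figure D1:**
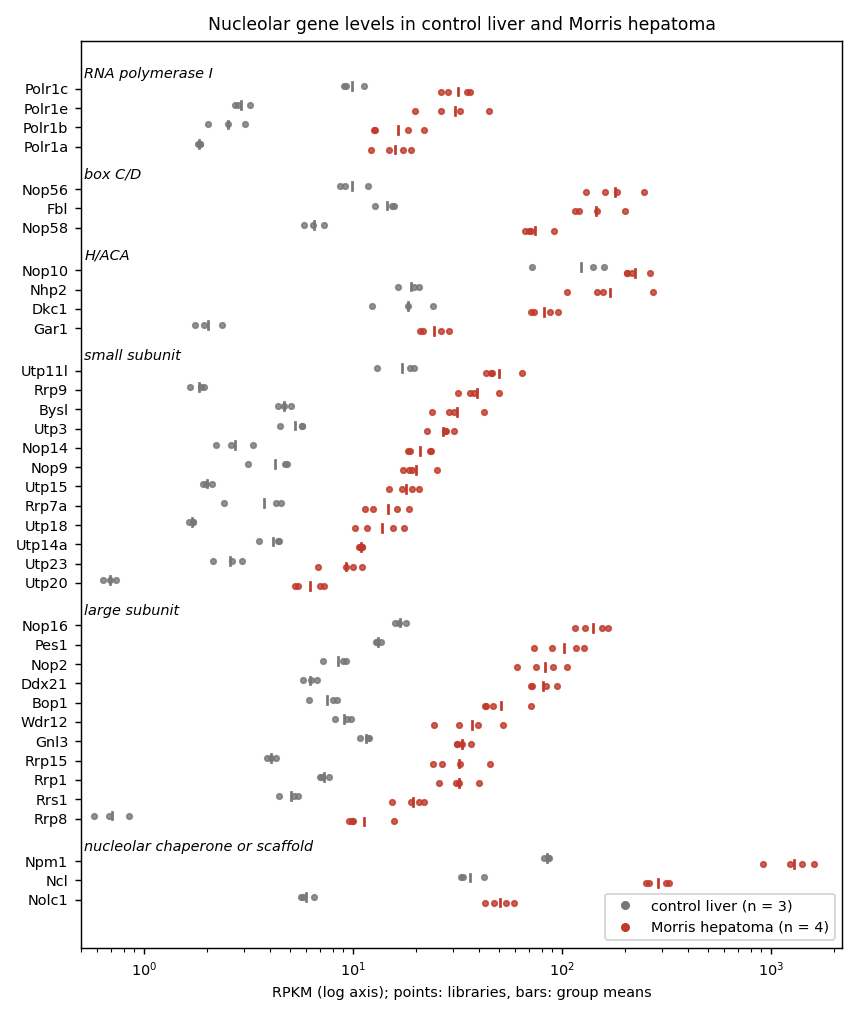
RPKM on a log axis for the 37 members in each control liver library (grey, n = 3) and each Morris hepatoma library (red, n = 4), with bars at the group means and genes ordered by role. The groups do not overlap in any of the 37 members with values as deposited, nor in 98.6% of all tested genes, whereas 6 members turn lower when library medians are set equal.

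RNA polymerase I subunits rose in 4 of 4 listed members, beside 85.5% of all tested genes, with a median log2 fold change of 2.41. Polr1e, a subunit specific to this polymerase (GeneID 313245), measured 3.23, 2.83 and 2.74 RPKM in control libraries 1 to 3 and 32.5, 44.8, 26.5 and 19.8 RPKM in hepatoma libraries 1 to 4. The lowest tumour value was several times the highest control value, and the log2 fold change was 2.96 ± 0.25 (SE, adjusted p = 7.4e-06 by limma). Polr1c, a subunit shared with RNA polymerase III (GeneID 301246), changed least of the 4. It measured 11.3, 9.32 and 9.04 RPKM in the controls and 36.5, 35.4, 28.6 and 26.4 RPKM in the tumours, a log2 fold change of 1.58 ± 0.18 (adjusted p = 5.3e-05 by limma), which is at the median of all tested genes and becomes -0.08 with library medians set equal. Polr1a, the largest catalytic subunit, rose from 1.84 ± 0.0252 to 15.9 ± 2.94 RPKM (mean ± SD, n = 3 and 4) and Polr1b, the other large catalytic subunit, from 2.53 ± 0.515 to 16.4 ± 4.54 RPKM. Polr1c thus stood at a higher level than the catalytic subunits in control liver and its lead narrowed in the tumours. The ratio of Polr1a to Polr1c was 0.163 to 0.201 in the control libraries and 0.430 to 0.566 in the hepatoma libraries.

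The 3 box C/D proteins rose, beside 85.5% of all tested genes, and each by more than the upper quartile of the tested genes. Their median log2 fold change was 3.33. Nop56, a core protein of the box C/D particle (GeneID 362214), had the largest log2 fold change of the 37 members. Its level was 11.9, 8.73 and 9.22 RPKM in the controls and 184, 247, 131 and 160.5 RPKM in the tumours, so the groups lay far apart. The log2 fold change was 4.03 ± 0.24 (adjusted p = 1.1e-06 by limma). Fbl, fibrillarin, the methyltransferase of the particle (GeneID 292747), measured 15.4, 15.7 and 12.7 RPKM in the controls and 147, 200.1, 120.2 and 115 RPKM in the tumours. Its change of 3.20 ± 0.23 was the smallest of the 3 (adjusted p = 2.7e-06 by limma). Nop58, the partner of Nop56 in the particle, rose from 6.52 ± 0.703 to 74.7 ± 11.7 RPKM. The ratio of Nop56 to Fbl was 0.556 to 0.770 in the controls and 1.09 to 1.39 in the tumours, without overlap, while that of Nop58 to Fbl overlapped at 0.372 to 0.570 and 0.460 to 0.590.

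The 4 H/ACA proteins rose, beside 85.5% of all tested genes, but unevenly, with log2 fold changes from 0.91 to 3.07. Gar1, which helps the particle release its modified RNA (GeneID 499709), measured 2.37, 1.75 and 1.94 RPKM in the controls and 26.4, 28.9, 21.7 and 21.1 RPKM in the tumours (3.07 ± 0.17, adjusted p = 9.2e-07 by limma). Nop10, a small core protein of the same particle (GeneID 691534), had the highest mean level of any member in control liver, although Npm1 was above it in control library 3, and the smallest log2 fold change of all 37. It measured 158.8, 141.6 and 72.2 RPKM in the controls and 205, 263, 206 and 217 RPKM in the tumours, with control library 3 well under the other controls. Its log2 fold change of 0.91 ± 0.28 had an adjusted p of 0.031 by limma, but the call was lost without control library 3 (0.56, adjusted p = 0.064) and without any single hepatoma library (adjusted p from 0.0503 to 0.11). With library medians set equal its value was -0.75 (adjusted p = 0.079) and with quantile normalization 0.34 (adjusted p = 0.27), so neither scaling gave a call and they differed in direction. Reads of Nop10 may be shared with the rat copies Nop10l1 and Nop10l2, so its level is uncertain. Dkc1, dyskerin, the pseudouridine synthase, rose from 18.3 ± 5.86 to 82.2 ± 11.8 RPKM, and Nhp2, another core protein, from 19.0 ± 2.29 to 171 ± 71.3 RPKM. The ratio of Gar1 to Nop10 was 0.0124 to 0.0268 in the controls and 0.0969 to 0.129 in the tumours, and that of Dkc1 to Nop10 was 0.116 to 0.171 and 0.346 to 0.405. Nop10 was the least changed member, so these ratios restate the fold changes. Without Nop10, the ratio of Nhp2 to Dkc1 overlapped, at 0.819 to 1.68 in the controls and 1.21 to 2.84 in the tumours. That of Gar1 to Dkc1 was separate, at 0.07285 to 0.1565 and 0.239 to 0.359.

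Small subunit factors rose in 12 of 12 members, beside 85.5% of all tested genes, with a median log2 fold change of 2.12. Rrp9, which binds the U3 small nucleolar RNA at the heart of the processome (GeneID 363134), had the largest ratio of means of the 37. It measured 1.66, 1.89 and 1.93 RPKM in the controls and 36.3, 49.8, 32.0 and 38.2 RPKM in the tumours, a ratio of 21.4 (log2 fold change 3.81 ± 0.18, adjusted p = 5.0e-07 by limma). Utp14a, a processome component (GeneID 317579), lay at the other end with 4.46, 4.397 and 3.57 RPKM in the controls and 10.7, 11.1, 11.1 and 10.9 RPKM in the tumours. The 4 tumour libraries were nearly level, and the log2 fold change was 1.22 ± 0.15 (adjusted p = 7.1e-05 by limma). Utp14a is the member that fell when library medians were set equal, to -0.44 (adjusted p = 0.033), and under quantile normalization, to -0.44 (adjusted p = 0.039). Among the other processome components, Utp15 rose from 2.01 ± 0.0920 to 18.0 ± 2.54 RPKM, Utp18 from 1.69 ± 0.0476 to 13.8 ± 3.35 and Utp20 from 0.688 ± 0.0485 to 6.25 ± 1.04. Bysl, bystin, which acts in late maturation of the small subunit, rose from 4.71 ± 0.326 to 31.5 ± 7.81 RPKM. The ratio of Utp14a to Utp20 was 4.85 to 6.88 in the controls and 1.47 to 2.07 in the tumours. Utp14a was the least changed of these factors, so that ratio restates the fold changes and is no separate result. Utp20 was also under 1 RPKM in every control library.

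Large subunit factors rose in 11 of 11 members, beside 85.5% of all tested genes, with a median log2 fold change of 2.68. Ddx21, a nucleolar RNA helicase (GeneID 317399), measured 6.74, 5.79 and 6.29 RPKM in the controls and 84.4, 95.1, 72.4 and 71.6 RPKM in the tumours (3.49 ± 0.17, adjusted p = 5.5e-07 by limma). Gnl3, nucleostemin, a nucleolar GTPase (GeneID 290556), was the least changed, with 11.8, 10.8 and 12.0 RPKM in the controls and 33.3, 36.9, 31.3 and 31.6 RPKM in the tumours (1.45 ± 0.15, adjusted p = 3.1e-05 by limma). Both genes separated the groups fully, yet the change of Gnl3 was under the median tested gene. Pes1, Bop1 and Wdr12 form the PeBoW complex, which matures the large subunit RNA. Their log2 fold changes were 2.83 ± 0.22, 2.59 ± 0.22 and 1.87 ± 0.25. The ratio of Bop1 to Pes1 overlapped between groups, at 0.481 to 0.619 in the controls and 0.365 to 0.611 in the tumours, whereas that of Wdr12 to Pes1 was lower in every tumour, at 0.635 to 0.721 and 0.272 to 0.448. Nop2, a ribosomal RNA methyltransferase, rose from 8.49 ± 1.15 to 83.3 ± 19.2 RPKM. Rrs1, which helps assemble the large subunit (GeneID 297784), measured 4.46, 5.21 and 5.44 RPKM in the controls and 21.9, 20.8, 15.5 and 19.0 RPKM in the tumours.

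The 3 nucleolar chaperones and scaffolds rose, beside 85.5% of all tested genes, with log2 fold changes from 2.89 to 3.88. Npm1, nucleophosmin, a chaperone that shuttles ribosomal particles (GeneID 25498), reached the highest level of any member. It measured 85.6, 87.1 and 82.6 RPKM in the controls and 1413, 1616, 917 and 1235 RPKM in the tumours (3.88 ± 0.24, adjusted p = 1.2e-06 by limma). The controls lay close together and the lowest tumour library stood far above them. Npm1 has many processed copies in mammalian genomes, so its reads may be split. Nolc1, a chaperone of small nucleolar particles (GeneID 64896), changed least of the 3, from 5.79, 5.62 and 6.496 RPKM to 54.0, 59.2, 42.9 and 47.3 RPKM (2.89 ± 0.17, adjusted p = 1.1e-06 by limma). Ncl, nucleolin, rose from 36.4 ± 5.29 to 289 ± 36.4 RPKM, and its ratio to Npm1 was 0.386 to 0.515 in the controls and 0.201 to 0.277 in the tumours.

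**Figure D2:**
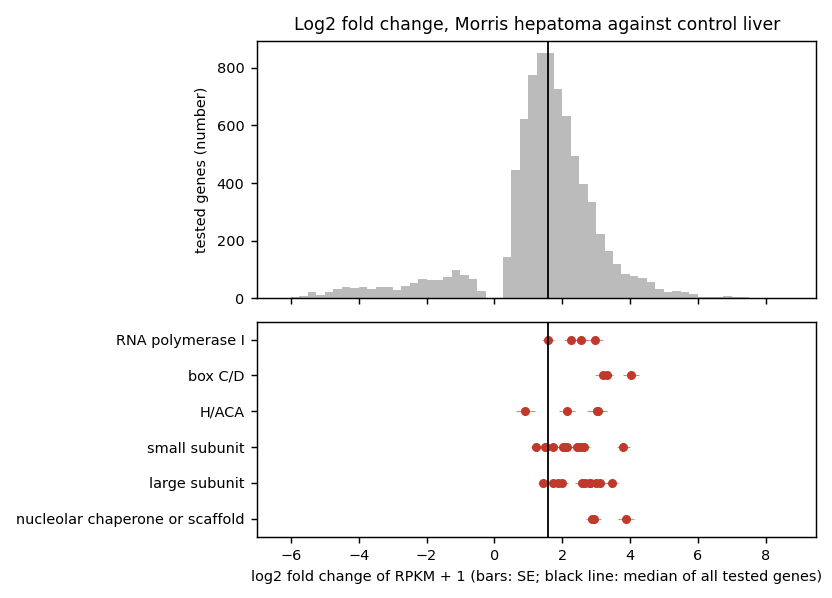
The upper panel shows the number of tested genes by log2 fold change of Morris hepatoma against control liver, and the lower panel each of the 37 members by role, with SE bars and the median of all tested genes as a black line at 1.58. The box C/D and chaperone members all lie right of the line, and members of the other role groups fall on both sides of it, with values as deposited.

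The make-up of the group was therefore not the same in tumour and control. Summed over the 37 members, RPKM was 521, 504 and 415 in control libraries 1 to 3 and 3685, 4405, 2798 and 3180 in hepatoma libraries 1 to 4. Nop10 made up 25.3% ± 6.97 (SD, n = 3) of that sum in control liver and 6.44% ± 0.811 (SD, n = 4) in the tumours, where its mean level had rank 3. Npm1 went from 17.9% ± 1.81 to 36.7% ± 2.73, and Nop56 from 2.08% ± 0.301 to 5.08% ± 0.382. The share of Utp14a went from 0.862% ± 0.00895 to 0.320% ± 0.0621, that of Gnl3 from 2.44% ± 0.391 to 0.964% ± 0.123 and that of Utp11l, a processome component, from 3.54% ± 0.353 to 1.43% ± 0.158. For each of these 6 genes the range over control libraries and the range over hepatoma libraries did not overlap. That does not mark them out, since they were named after the shares were seen. The ranges were separate in other members too, such as Rrp9, Gar1 and Dkc1, and overlapped in others, such as Ncl and Pes1. Shares within a library do not change when all its RPKM values are multiplied by 1 factor. Setting library medians equal shifted log2(RPKM + 1) and so multiplied RPKM + 1, which can change the shares. Quantile normalization can change them too. The shares are also tied to each other, since a larger share of Npm1 leaves less for the rest.

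**Figure D3:**
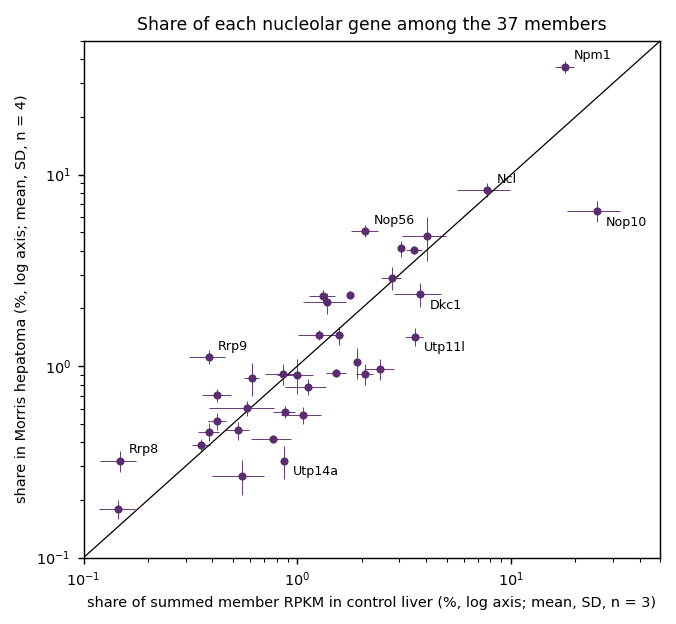
Share of each of the 37 members in their summed RPKM, in control liver (horizontal, mean and SD, n = 3) and Morris hepatoma (vertical, mean and SD, n = 4), in percent on log axes with the line of equal shares. Npm1 and Nop56 lie above the line at 36.7% and 5.08% of the tumour sum, and Nop10 and Utp14a lie below it at 6.44% and 0.320%.

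The tumour libraries kept a common order across members. Hepatoma library 2 held the highest value in 29 of the 37 members (78.4%), beside 43.8% of the 8036 listed genes with a mean of at least 1 RPKM, and library 1 held it in the other 8. The lowest value came from library 3 in 21 members (56.8%), from library 4 in 13 (35.1%) and from library 1 in 3 (8.1%). Over the same 8036 listed genes it came from library 3 in 46.7%, library 4 in 22.8% and library 1 in 17.5%. The order was thus partly that of all listed genes. The library with the highest member sum, library 2, had the lowest sum of hepatocyte markers, and library 3 with the lowest member sum had the highest. The part of hepatocyte RNA in the differences between members was not tested. With libraries 3 and 4 left out together, 36 of the 37 members still rose by limma, with a median log2 fold change of 2.76 beside 1.68 over all tested genes, and the exception was Nop10 (0.98, adjusted p = 0.13). Cell division markers, 14 of 15 listed, summed to 12.5 to 28.5 RPKM in the controls and 594 to 912 RPKM in the tumours. Stellate cell and fibroblast markers, 10 of 12 listed, summed to 36.6 to 125 and 2880 to 5510 RPKM, and macrophage markers, 6 of 12 listed, to 137 to 169 and 779 to 1387 RPKM. Of the 6 macrophage markers 5 rose, mainly Lyz2 from 26.0 to 785 RPKM, while the Kupffer cell marker Clec4f fell from 80.4 to 16.04 RPKM. Endothelial markers, 5 of 12 listed, summed to 24.2 to 37.2 and 129 to 179 RPKM, and cholangiocyte markers, 2 of 8 listed, to 5.13 to 9.60 and 196 to 277 RPKM. The part of these cells in the members' change was not tested.

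Genes of the same pathway outside the naming rule moved the same way with values as deposited. Of 122 further ribosome biogenesis genes, 102 were listed for Morris hepatoma and tested, and 102 rose, with a median log2 fold change of 2.44. Over all 8233 tested genes 85.5% rose and the median was 1.58, so counts of genes that rose say little alone. With library medians set equal 60 of the list rose and 2 fell, beside 2029 and 2389 of all tested genes. Quantile normalization gave 67 and 1, beside 2514 and 1878. The largest change in the list was that of Ruvbl2, an ATPase that helps assemble small nucleolar particles, from 7.14 ± 0.714 to 172 ± 47.7 RPKM (4.37 ± 0.23). The smallest was that of Tsr2, a chaperone of a small subunit protein, from 4.06 ± 1.15 to 8.49 ± 1.22 RPKM (0.92 ± 0.19). RNA polymerase I factors rose in 9 of 9, among them Ubtf, the upstream binding factor, from 9.56 ± 0.647 to 53.0 ± 7.67 RPKM, and Rrn3, which brings the polymerase to its promoter, from 7.92 ± 0.616 to 27.9 ± 3.12 RPKM. Of the Myc network 5 of 13 genes were listed and 5 rose, and Myc itself went from 9.09 ± 2.18 to 108 ± 24.6 RPKM (3.42 ± 0.25, adjusted p = 2.8e-06 by limma). With either scaling 1 of these 5 rose.

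The rat annotation used here held 52 genes that fit the naming rule, and 44 of them, or 84.6%, were listed for Morris hepatoma, beside 39.0% of all 23154 protein-coding genes. The listing rests on the same contrast as the fold changes and is no separate result. The 44 included 7 genes that the table carried under older symbols and that are therefore not among the 37. All 7 rose, beside 85.5% of the genes tested in this comparison, and their log2 fold changes ran from 1.76 to 3.53. Polr1g, a subunit specific to RNA polymerase I that the table calls cd3eap, rose from 2.78 ± 0.529 to 42.7 ± 7.99 RPKM and was the most changed of the 7. Nop53, a large subunit factor that the table calls gltscr2, rose from 32.1 ± 0.533 to 168 ± 58.5 RPKM. The others were Polr1d, Polr1f, Polr1h, Utp4 and Utp25, and some of these also stand in the pathway lists above under their older names. Rrp12, Rrp36, Rrp1b, Utp6, Nopchap1, Polr1has and the copies Nop10l1 and Nop10l2 were not listed and have no value here.

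In regenerating liver 1 of the 10 listed members rose above control, beside 21.2% of the 1703 genes tested that rose and 0.763% that fell, and with so few members the count cannot be set apart from that background. The median log2 fold change of the members was 0.42 and that of all tested genes 0.53. Bysl (GeneID 359727) was the member that rose, from 4.39, 4.71 and 5.04 RPKM in control libraries 1 to 3 to 8.46, 8.08, 8.69 and 10.9 RPKM in regenerating libraries 1 to 4. Every regenerating library stood well above every control, with library 4 highest. Its log2 fold change was 0.81 ± 0.13 (adjusted p = 0.018 by limma). The call was lost without control library 1 (adjusted p = 0.11), control library 2 (adjusted p = 0.089) or regenerating library 2 (adjusted p = 0.0502), and with either scaling, where the change was 0.18. By limma 0 members fell, and 9 of the 10 were higher at an unadjusted p under 0.05. Adjusted over the tested genes alone, which were listed for their p-value, 8 of the 10 members were called higher, and so were 1561 of the 1703 tested genes, with 65 lower.

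The other 9 did not pass the threshold, and their levels are given as values. Bop1 measured 8.38, 8.04 and 6.19 RPKM in the controls and 13.3, 11.4, 10.7 and 13.4 RPKM in regenerating liver (0.63 ± 0.14, adjusted p = 0.053 by limma). Fbl measured 15.4, 15.7 and 12.7 RPKM against 20.6, 23.1, 20.4 and 29.8 RPKM (0.64 ± 0.16, adjusted p = 0.079 by limma). Both had separate groups, and regenerating library 4 was the highest. Pes1, the partner of Bop1, measured 13.7, 13.0 and 12.9 RPKM against 19.3, 17.7, 16.1 and 19.7 RPKM (adjusted p = 0.11 by limma). Rrp9 measured 1.66, 1.89 and 1.93 RPKM against 3.01, 2.24, 3.18 and 3.14 RPKM (adjusted p = 0.13 by limma). In Rrp9 the regenerating libraries all stood above the controls and far under the tumour values. Rrs1 measured 4.46, 5.21 and 5.44 RPKM against 6.04, 6.59, 7.60 and 6.70 RPKM (adjusted p = 0.25 by limma). Nop9, an RNA-binding protein needed for the small subunit, measured 4.85, 4.75 and 3.14 RPKM against 5.66, 5.84, 5.66 and 6.32 RPKM (adjusted p = 0.28 by limma). In Nop9 control library 3 was low and the 4 regenerating libraries lay close together.

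Utp23, a processome component, measured 2.15, 2.66 and 2.94 RPKM in the controls and 3.56, 3.73, 3.71 and 2.88 RPKM in regenerating liver (adjusted p = 0.46 by limma). It was the member whose groups overlapped, through regenerating library 4. Rrp1, a large subunit factor, measured 7.12, 7.69 and 6.98 RPKM against 9.25, 8.72, 7.98 and 9.41 RPKM (adjusted p = 0.68 by limma). Polr1a measured 1.85, 1.86 and 1.81 RPKM against 2.25, 2.00, 2.37 and 2.68 RPKM (adjusted p = 1 by limma). The groups were separate in 9 of the 10 members, beside 93% of all tested genes, which were listed for differing in this contrast. Regenerating library 4 was highest in 7 of 10 members, beside 53.9% of the 1669 listed genes with a mean of at least 1 RPKM. The split of all tested genes was 361 higher and 13 lower as deposited, 19 and 59 with library medians set equal, and 20 and 46 with quantile normalization, while the median of the members went from 0.42 to -0.21 and -0.20.

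**Figure D4:**
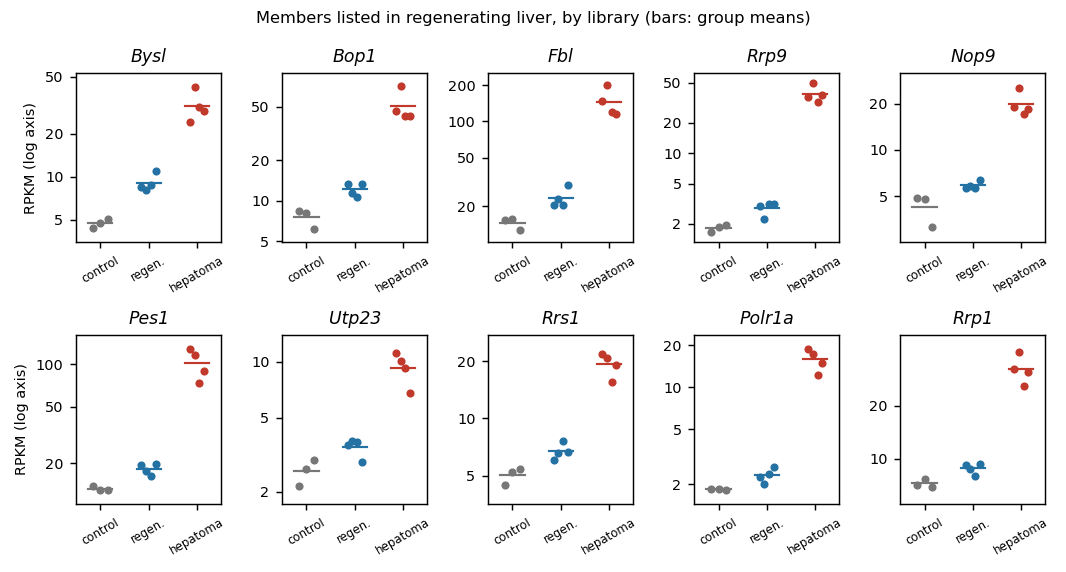
RPKM on log axes for the 10 members listed in regenerating liver, in control (grey, n = 3), regenerating (blue, n = 4) and Morris hepatoma (red, n = 4) libraries, with bars at the group means. All 4 hepatoma libraries lie above all regenerating libraries in each panel, and control and regenerating libraries overlap for Utp23, with values as deposited.

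Cell division markers, 13 of 15 listed, summed to 4.61 to 17.6 RPKM in the controls and 64.6 to 211.7 RPKM in regenerating liver, where 10 of the 13 rose. Hepatocyte markers, 2 of 18 listed, summed to 13060 to 19760 RPKM and 20060 to 21320 RPKM. That sum was nearly all Tf, which did not pass, and the other marker, G6pc, fell from 544.9 to 127 RPKM. Stellate cell and fibroblast markers, 4 of 12 listed, summed to 31.7 to 82.9 and 106.9 to 139.5 RPKM, and endothelial markers, 3 of 12 listed, to 18.5 to 25.3 and 41.5 to 67.2 RPKM. The part of such cells in the values of the members was not tested. Among 21 tested genes of the further ribosome biogenesis list 1 rose and 20 missed the threshold, with a median log2 fold change of 0.38. It was Mybbp1a, a nucleolar protein that binds RNA polymerase I, from 7.22 ± 1.06 to 11.6 ± 1.03 RPKM (0.62 ± 0.13, adjusted p = 0.049 by limma), and 0 genes of the list rose without control library 1 or 2 or without any single regenerating library. Of the Myc network 3 genes were listed and Mxd3, a partner of Max, rose from 0.159 ± 0.250 to 1.75 ± 0.476 RPKM (adjusted p = 0.014 by limma). It passed the filter only through the regenerating libraries, and its call was lost with either scaling and without control library 1 or 2. Myc was not listed and has no value in this comparison. Of the 52 rat genes that fit the naming rule 10, or 19.2%, were listed for regenerating liver, beside 9.02% of all protein-coding genes.

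Tumour and regenerating liver were also compared directly on genes listed in both rat tables, whose control columns were identical. All 10 members rose in Morris hepatoma relative to regenerating liver, beside 80.8% of the 1673 genes tested, but with library medians set equal or with quantile normalization 4 of the 10 rose. Their log2 fold changes ranged from 1.19 to 3.35 with a median of 1.85, beside 1.47 over all tested genes. Rrp9 differed most, at 2.89 ± 0.442 RPKM in regenerating liver and 39.1 ± 7.59 RPKM in the tumours (3.35 ± 0.16, adjusted p = 3.9e-09 by limma). Utp23 differed least, at 3.47 ± 0.403 and 9.29 ± 1.83 RPKM (1.19 ± 0.16, adjusted p = 9.9e-05 by limma), and was at -0.35 with library medians set equal. Bysl, the member that rose in regenerating liver, was at 9.03 ± 1.27 and 31.5 ± 7.81 RPKM (1.67 ± 0.18). Polr1a and Fbl were 6.84-fold and 6.21-fold higher in the tumours by the ratio of means, Pes1 5.60-fold and Rrs1 2.87-fold, and the log2 fold change of Rrs1 turned to -0.16 with either scaling. The groups were separate in 10 of 10, beside 90.4% of all tested genes. Of the further ribosome biogenesis genes 23 of 23 tested rose, with a median of 1.99. The comparisons of tumour and of regenerating liver with control share their 3 control libraries, so the 2 sets of fold changes are not independent, and no overlap between them is given. The split of all tested genes here was 1352 higher and 67 lower as deposited, 445 and 482 with library medians set equal, and 495 and 433 with quantile normalization.

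In the DEN mice 2 of the 5 tested members rose in liver with tumours, both of them box C/D proteins, beside 17.9% of the 3684 genes tested that rose and 49.5% that fell. The median log2 fold change of the 5 was 0.47 and that of all tested genes -0.56. Nop58 (GeneID 55989) measured 6.09, 9.70 and 8.57 RPKM before tumours and 15.8, 18.5 and 20.6 RPKM with tumours. The groups were separate by several RPKM, and the log2 fold change was 1.09 ± 0.18 (adjusted p = 0.0061 by limma). Nop56 (GeneID 67134) measured 12.7, 15.5 and 12.4 RPKM before and 20.8, 18.7 and 24.3 RPKM with tumours (0.62 ± 0.15, adjusted p = 0.031 by limma). Nop56 was no longer called without any 1 of the 3 libraries before tumours or without library 1 or 3 with tumours, where its adjusted p was 0.052 to 0.12.

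Gar1 measured 4.16, 3.63 and 4.56 RPKM before and 5.72, 6.87 and 5.64 RPKM with tumours (0.47 ± 0.14, adjusted p = 0.067 by limma). Rrs1 measured 4.79, 4.43 and 4.63 RPKM before and 4.03, 4.29 and 3.999 RPKM with tumours (-0.14 ± 0.12, adjusted p = 1 by limma). Nop9 measured 5.55, 7.32 and 6.85 RPKM before and 5.04, 5.01 and 4.51 RPKM with tumours (-0.37 ± 0.14, adjusted p = 0.18 by limma). None of these 3 passed the threshold, and with library medians set equal Rrs1 and Nop9 stood at 0.26 and 0.03. Utp14b, a retrotransposed copy of Utp14a whose reads may be shared with its parent, stayed under the filter at 0.718, 0.631 and 0.368 RPKM before and 0.986, 1.03 and 1.11 RPKM with tumours. No member fell by limma, and 1, Nop9, was lower at an unadjusted p under 0.05. The split of all tested genes was 658 higher and 1823 lower as deposited, 912 and 614 with library medians set equal, and 883 and 589 with quantile normalization, and 3 members then rose under either scaling.

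**Figure D5:**
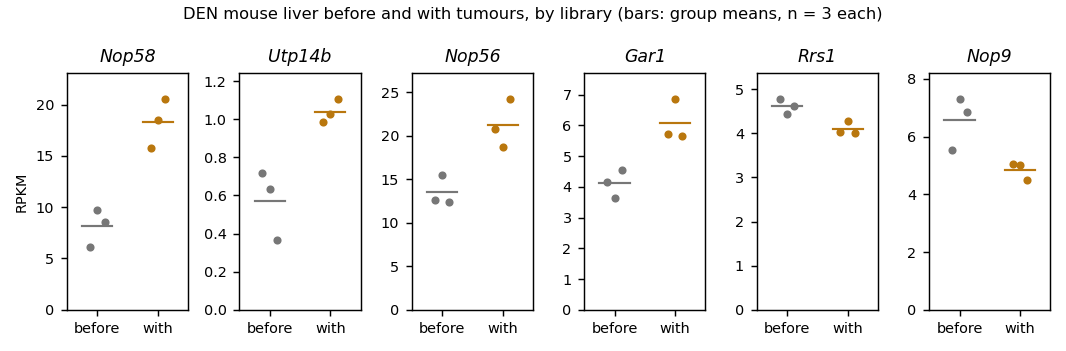
RPKM of the 6 members listed for the DEN mice in each library before tumours (grey, n = 3) and with tumours (orange, n = 3), with bars at the group means and axes that start at 0. Nop58 is the gene with the widest gap, at 8.12 and 18.3 RPKM, and Rrs1 and Nop9 are lower with tumours as deposited but not with library medians set equal.

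The other genes of the pathway did not move one way in the mice. Among 16 tested genes of the further ribosome biogenesis list 3 rose, 3 fell and 10 missed the threshold, with a median log2 fold change of -0.04. Esf1, Riok1 and Pwp1, which act in maturation of the subunits, rose, led by Esf1 from 4.36 ± 1.27 to 7.59 ± 0.360 RPKM (0.71 ± 0.19, adjusted p = 0.044 by limma). Las1l, a nuclease of precursor RNA processing, and the RNA exosome subunits Exosc5 and Exosc8 fell, led by Exosc8 from 11.2 ± 1.92 to 6.18 ± 0.819 RPKM (-0.76 ± 0.16, adjusted p = 0.017 by limma). Leaving out single libraries left at most 1 gene higher and 2 lower, and with library medians set equal 8 rose and 0 fell. Myc rose from 3.84 ± 0.683 to 6.68 ± 0.688 RPKM (0.67 ± 0.15, adjusted p = 0.021 by limma), a call lost without library 2 or 3 before tumours or library 3 with tumours. Mlxipl, a carbohydrate sensing factor of the same network, fell from 74.9 ± 18.2 to 23.2 ± 5.68 RPKM. Hepatocyte markers, 7 of 18 listed, summed to 51730 to 63880 RPKM before and 145400 to 165400 RPKM with tumours. Of the 7, Alb, Apoa1 and Ahsg rose and made up most of the sum, Serpina1c fell, and Cyp2e1 fell from 3135 to 279.8 RPKM. Cell division markers, 9 of 15 listed, summed to 5.75 to 7.46 and 17.6 to 36.98 RPKM. Stellate cell and fibroblast markers, 2 of 12 listed, summed to 20.8 to 33.6 and 59.5 to 62.7 RPKM, and macrophage markers, 6 of 12 listed, to 81.0 to 100.6 and 105.4 to 150.9 RPKM, with 3 higher and 2, Clec4f and Timd4, lower. Endothelial markers, 6 of 12 listed, summed to 21.6 to 29.6 and 28.7 to 49.5 RPKM, with 4 higher and 1 lower. The single T and NK cell marker listed, of 12, measured 0.203 to 3.12 and 38.5 to 72.7 RPKM. The part of such cells in the changes of Nop58 and Nop56 was not tested. Of the 45 mouse genes that fit the naming rule 6, or 13.3%, were found by symbol among those listed for the DEN model. Matched the same way, 19.1% of all protein-coding genes were listed. Genes listed under older symbols were missed, such as Utp4, listed as Cirh1a, so these shares are too low. The rat shares were matched by gene number and cannot be set beside them.

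Nop9 and Rrs1 are the members listed in all 3 tables. Nop9 had log2 fold changes of 2.01 ± 0.20 in Morris hepatoma, 0.41 ± 0.14 in regenerating liver and -0.37 ± 0.14 in DEN liver with tumours. Its hepatoma values were 19.2, 25.4, 17.3 and 18.5 RPKM. Rrs1 had log2 fold changes of 1.74 ± 0.17, 0.36 ± 0.12 and -0.14 ± 0.12 in the same order. Both genes rose in the hepatoma with values as deposited and passed in neither other comparison. With library medians set equal the hepatoma change was 0.35 for Nop9 and 0.08 for Rrs1. Quantile normalization gave 0.38 and 0.11, and neither gene was called under either scaling. Adjusted over the tested genes alone, both were called higher in regenerating liver, and Nop9 was called lower in the DEN mice. The mouse and rat changes were not tested against each other. Nop56, Nop58 and Gar1, listed for the mice and for the hepatoma, changed by 0.62, 1.09 and 0.47 in the mice and by 4.03, 3.33 and 3.07 in the rats.

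The members' promoters were looked at because all 37 rose in Morris hepatoma with values as deposited, although 1 fell and fewer rose with either scaling. RefSeq held a promoter, 250 bases before to 50 after an annotated start on the GRCr8 assembly, for 34 of the 37 rat members, and Bop1, Rrs1 and Utp23 had none. The motif CACGTG, an E-box that Myc and Max can bind and that reads the same on both strands, was present in 12 of the 34 (35.3%). It was in 9.74% of the 6829 promoters of genes tested in Morris hepatoma and in 6.65% of all 27457 promoters. Of the 12, 9 held it within 50 bases of the start and 6 after the start. Of the 7 regenerating liver members with a promoter 4 held it, which were Bysl, Fbl, Pes1 and Rrp1. The share over the genes tested in regenerating liver was not computed. The motif CCGGAAG, the core that ETS family factors bind, searched on both strands, was in 17 of the 34 (50.0%), in 19.8% of the tested genes and in 9.22% of all promoters. Among the 7 regenerating liver members 2, Bysl and Fbl, held CCGGAAG. Of the 34 members 8 held both motifs and 21 held at least 1 of them. The remaining motifs were also searched on both strands. GGGCGG, in 64.7% of members and 63.0% of tested genes, and GCATGCGC, in 5.88% and 5.48%, stood near the tested genes. TATAAA, in 2.94% and 6.6%, and ATTGG, in 20.6% and 38.2%, were less frequent in the members. A match is a run of letters and not evidence of binding, and its part in the changes was not tested.

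The 4 regenerating liver members with CACGTG are shown, followed by Rrp9 and Nop10, the members with the largest and smallest ratio of means in the tumours, in which neither motif occurred in the bases shown. Each runs 5′ to 3′ on the plus strand of GRCr8 from 100 bases before to 50 after the start, with CACGTG and CCGGAAG or its reverse complement CTTCCGG in capitals. In Bysl (chr9:20880241-20880390) the E-box began at base 33 after the start, in Fbl (chr1:92597307-92597456) at base 22 after it, in Pes1 (chr14:83074246-83074395) 50 bases before it and in Rrp1 (chr20:10260480-10260629) 16 bases before it. The table gives 1 start for each gene, and that of Rrp9 lies inside the annotated gene. The Rrp9 window is chr8:115996080-115996229 and the Nop10 window chr3:119521155-119521304.
Bysl: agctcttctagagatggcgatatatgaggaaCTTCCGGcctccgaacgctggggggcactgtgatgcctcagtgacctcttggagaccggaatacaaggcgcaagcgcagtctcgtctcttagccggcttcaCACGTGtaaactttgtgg
Fbl: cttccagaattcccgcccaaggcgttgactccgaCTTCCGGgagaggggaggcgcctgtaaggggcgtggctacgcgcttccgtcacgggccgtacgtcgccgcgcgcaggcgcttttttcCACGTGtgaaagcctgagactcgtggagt
Pes1: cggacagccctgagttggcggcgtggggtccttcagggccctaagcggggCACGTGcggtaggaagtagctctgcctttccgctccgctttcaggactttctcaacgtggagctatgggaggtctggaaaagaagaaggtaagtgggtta
Rrp1: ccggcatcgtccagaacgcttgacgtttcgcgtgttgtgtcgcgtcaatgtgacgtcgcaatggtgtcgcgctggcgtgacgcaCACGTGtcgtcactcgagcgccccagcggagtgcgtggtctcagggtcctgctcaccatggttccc
Rrp9: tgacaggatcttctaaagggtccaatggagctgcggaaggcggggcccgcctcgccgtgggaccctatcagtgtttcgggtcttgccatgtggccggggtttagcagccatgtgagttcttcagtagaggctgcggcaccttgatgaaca
Nop10: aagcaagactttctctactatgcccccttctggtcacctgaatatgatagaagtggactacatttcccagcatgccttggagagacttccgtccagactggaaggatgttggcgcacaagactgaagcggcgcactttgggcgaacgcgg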

How the data were processed

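RNA sequencing of bulk liver and tumour was deposited as 3 tables, and the rat tables shared their control columns. The header names no unit for the library columns. The values were read as RPKM as deposited by the authors, with 0.001 standing for no reads. A log2 ratio and a p-value adjusted by Holm's method are further columns, per the file headers, but the deposited log2 ratio and p-value matched, for every gene, those recomputed from the columns without adjustment, within 0.01 and 1 percent. Every deposited p-value was under 0.05, so the genes were preselected for the contrast tested here. The aligner, counter and genome build are not given in the sources used here, nor is the strand used in counting. For Morris hepatoma 1 line that named no gene was left out.

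Log2(RPKM + 1) values were tested with limma 3.58.1 (R 4.3.3, trend and robust settings) on the groups compared, keeping genes that reached 1 RPKM in enough libraries to fill the smaller group. Benjamini-Hochberg adjustment ran over all annotated protein-coding genes, 21951 in mouse and 23154 in rat, with unlisted genes given a p of 1, and a call needed an adjusted p under 0.05. Tables and figures used Python 3.11.15, pandas 2.3.3, numpy 2.4.6, scipy 1.17.1 and matplotlib 3.10.9, and the fit was tested on simulated data. Groups came from the sample labels. Values in every library are given for the members with the largest and smallest log2 fold change in each role group, those that did not pass or went against the majority, and those in all 3 tables. Other genes are named where they had the largest or smallest change of their list, with Myc and Rrn3. The remaining genes named were chosen after their values were seen. The members and gene lists were chosen with earlier results of these data known. Alternatives were another pseudocount, other filters, library medians set equal, quantile normalization, limma without trend and robust settings, adjustment over the tested genes alone, a replicate block, all 3 rat groups in 1 fit and leaving out single libraries. Leaving out hepatoma libraries 3 and 4 together was added after seeing the data.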

Additional observations from a re-analysis of the deposited data

Results flagged for a closer look

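In hepatoma library 2 the level of Rrp8, a nucleolar methyltransferase, was 15.67 RPKM, that of Bop1 71.25 RPKM and that of Utp11l 64.28 RPKM. In each of these 3 members that library stood apart from the other 3 hepatoma libraries, with a gap to its nearest neighbour that took more of the group's whole range than the critical value of Dixon's test for 4 samples allows. In all 47 groups of 4 libraries were looked at, and chance flags about 1 in 20 independent groups. These groups share their libraries and are not independent, so the 3 flags cannot be set against that rate. Hepatoma library 2 held the highest value in 29 of the 37 members. Hepatoma library 2 was also the library with the lowest sum of hepatocyte markers, at 123 RPKM, and the part of that in these values was not tested.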

How the results depend on the processing

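Of the values of single members under the alternatives, 567 in Morris hepatoma against control kept direction and side of the threshold, 26 lost the call and 9 reversed. In the same order the counts were 168, 8 and 4 for hepatoma against regenerating liver. In regenerating liver 130 were unchanged, 6 lost the call, 7 gained it and 14 reversed, and in the DEN mice 56, 6, 4 and 3. All reversals came from the 2 scalings, which assume that most genes do not differ. With library medians set equal, log2 fold changes in the DEN mice became 0.258 for Rrs1 and 0.031 for Nop9. In Morris hepatoma they became -0.153 for Utp23, -0.084 for Polr1c, -0.169 for Utp11l, -0.214 for Gnl3, -0.442 for Utp14a and -0.753 for Nop10. In regenerating liver they became -0.171 for Rrp9, -0.22 for Nop9, -0.192 for Pes1, -0.305 for Utp23, -0.268 for Rrs1, -0.403 for Polr1a and -0.375 for Rrp1, and against regenerating liver -0.155 for Rrs1 and -0.351 for Utp23 in the hepatoma. With quantile normalization they became 0.176 for Rrs1 in the DEN mice, and -0.197 for Utp23, -0.044 for Gnl3 and -0.44 for Utp14a in the hepatoma. In regenerating liver that scaling gave -0.184 for Rrp9, -0.223 for Nop9, -0.12 for Pes1, -0.355 for Utp23, -0.282 for Rrs1, -0.448 for Polr1a and -0.35 for Rrp1, and in hepatoma against regenerating liver -0.158 for Rrs1 and -0.325 for Utp23. Counts of genes moved as follows. With medians equal, 22 members rose and 1 fell in the hepatoma, as did 60 and 2 further ribosome biogenesis genes, 1 RNA polymerase I factor fell and 1 Myc network gene rose. With quantile normalization these were 24 and 1 members, 67 and 1 further genes and 1 Myc network gene. In regenerating liver 0 members, 0 further genes and 0 Myc network genes rose with either scaling. Against regenerating liver 4 members rose with either, with 10 (medians) or 11 (quantile) further genes higher and 1 lower, 0 RNA polymerase I factors higher, and 0 Myc network genes higher and 1 lower. In the DEN mice 8 (medians) or 7 (quantile) further genes rose and 0 fell, and 1 Myc network gene fell. Adjusted over the tested genes alone, 1 member, 7 further genes and 1 RNA polymerase I factor fell in the DEN mice and 6 further genes rose, and in regenerating liver 8 members, 20 further genes, 1 RNA polymerase I factor and 3 Myc network genes rose. A filter at 5 RPKM left 0 further genes higher and 1 Myc network gene lower in the DEN mice, and 0 of each higher in regenerating liver. A pseudocount of 0.1 or no filter gave 2 further genes higher in regenerating liver. With all 3 rat groups in 1 fit, which holds only genes in both rat tables, 10 members, 23 further genes, 1 RNA polymerase I factor and 2 Myc network genes rose in the hepatoma, and 0 further genes rose in regenerating liver. In hepatoma against regenerating liver 1 Myc network gene rose with a pseudocount of 0.1, a filter at 5 RPKM, limma without trend and robust settings, or without hepatoma libraries 3 and 4. Leaving out single libraries gave 1 to 2 members higher in the DEN mice, 0 to 1 further genes higher and 0 to 2 lower, and 0 to 1 Myc network genes higher and 1 to 2 lower. It gave 36 to 37 members higher in the hepatoma, 0 to 1 members, further genes and Myc network genes in regenerating liver, and 1 to 2 Myc network genes in hepatoma against regenerating liver. Where the construction of an alternative does not show it, the cause was not tested. Over all alternatives the tested genes called higher ranged from 289 to 943 in the DEN mice, 1553 to 7637 in the hepatoma, 19 to 1561 in regenerating liver and 445 to 1442 in hepatoma against regenerating liver, and those called lower from 589 to 2647, 68 to 2389, 1 to 65 and 54 to 482.

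Correlations of the deviations of samples with the same replicate number were -0.159 to -0.022 in the DEN mice and -0.22 to -0.152 in Morris hepatoma. They were -0.317 to 0.151 in regenerating liver and -0.151 to 0.086 for hepatoma against regenerating liver. Pairs with different numbers reached similar sizes, such as 0.316 in regenerating liver and -0.229 in Morris hepatoma. With so few libraries, such correlations cannot exclude that samples of the same number share a batch. With the replicate block 1 member, 1 further ribosome biogenesis gene and 0 Myc network genes rose in the DEN mice, and 0 members, 0 further genes and 0 Myc network genes in regenerating liver.

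The tables hold genes chosen for differing, so counts over listed genes overstate the share of all genes that differ. Absolute depth is unknown, which limits what can be said of genes near 1 RPKM such as Rrp8, Utp20 and Utp14b.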
